A study of Mus musculus with 9 samples.

Results

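The expression of 9 pericentral and Wnt-dependent zonation genes was examined in mouse livers with nonalcoholic steatohepatitis (NASH). The genes were Glul, Oat, Slc1a2, Rhbg, Lect2, Axin2, Lgr5, Rnf43 and Tbx3. They were chosen by symbol from the 24008 genes listed in the count table, and all 9 were found and had enough counts to be tested. RNA was sequenced from livers of 3 Flox, 3 F4MKO and 3 F4MKO+FSTL1 mice, with 1 library per liver sample. All mice were on a C57BL/6J background and received a high fat and high carbohydrate diet to induce NASH. The labels name the Flox group WT, and it was taken as the control that the study calls Flox. F4MKO mice carry a deletion of IRF4 (interferon regulatory factor 4) in skeletal muscle, made with floxed Irf4 and Myl-Cre, so liver counts do not check it. F4MKO+FSTL1 mice carry the same deletion and also received an AAV8 vector in the gastrocnemius, in which the muscle creatine kinase (MCK) promoter drives FSTL1, a secreted muscle protein. The methods give an AAV-GFP injection to the control and F4MKO groups, which the labels do not name. The reporting summary of the study gives an age of 8 weeks for its mice, which was recorded for all 3 groups. The methods state this age at diet start only for the wild-type mice of another experiment. Livers were sampled 4 weeks after virus injection, and the diet is stated as 24 weeks in the experimental design and 12 weeks in the section on virus injection. The totals ran from 20656976 to 24322984 reads counted on genes per library.

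In the liver lobule, hepatocytes around the central vein receive Wnt ligands and R-spondin from endothelial cells of that vein, and beta-catenin with TCF factors then switches on a pericentral gene programme. Glul, glutamine synthetase, is the classic target and marks the innermost hepatocytes, where it joins glutamate and ammonium. Oat (ornithine aminotransferase) makes glutamate, Slc1a2 carries glutamate into the cell and Rhbg carries ammonium, so these genes serve the same glutamine-making cells. Lect2 is a secreted hepatocyte protein and a known beta-catenin target. Axin2, Lgr5, Rnf43 and Tbx3 belong to the signalling side. Axin2 is a scaffold of the complex that degrades beta-catenin and a general readout of Wnt signalling, Lgr5 is a receptor for R-spondins, Rnf43 removes Wnt receptors from the cell surface, and Tbx3 is a transcription factor.

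The 9 genes lie on 8 chromosomes, given here from RefSeq in GRCm38.p6, the assembly that mm10 is made from. Glul spans chr1:153899929-153909723, Oat chr7:132557475-132576398, Slc1a2 chr2:102658239-102790784, Rhbg chr3:88242874-88254739 and Lect2 chr13:56529734-56548559. Axin2 spans chr11:108917828-108950783, Lgr5 chr10:115450314-115587780, Rnf43 chr11:87663087-87735539 and Tbx3 chr5:119670534-119684724. Promoter windows of RefSeq, from 250 bases before to 50 bases after a transcription start, were matched by symbol for 6 of the 9 genes. They were searched on both strands for CTTTGA and CTTTGT (read on the other strand as TCAAAG and ACAAAG), short cores of the DNA sequence that TCF factors recognise. The windows of Slc1a2 and Lect2 held a match, 2 in Slc1a2 and 1 in Lect2, all of them CTTTGA or TCAAAG, and those of Glul, Oat, Axin2 and Rnf43 held none. Among 32851 windows of all genes, 16% held CTTTGA and 31.2% held either core. Glul and Oat are shown because they had the highest levels of the 9 genes and a small adjusted p in the comparison with FSTL1. Slc1a2 and Lect2 are shown because they hold the core, which is in capitals. The Slc1a2 window belongs to a start inside the span of the gene.
Glul promoter (chr1:153899679-153899978, plus strand): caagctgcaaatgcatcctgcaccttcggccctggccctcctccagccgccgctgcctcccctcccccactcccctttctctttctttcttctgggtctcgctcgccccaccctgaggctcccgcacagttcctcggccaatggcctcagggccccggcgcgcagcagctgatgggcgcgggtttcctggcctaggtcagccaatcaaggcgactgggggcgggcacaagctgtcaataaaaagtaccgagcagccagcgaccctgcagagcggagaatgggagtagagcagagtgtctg
Oat promoter (chr7:132576349-132576648, minus strand): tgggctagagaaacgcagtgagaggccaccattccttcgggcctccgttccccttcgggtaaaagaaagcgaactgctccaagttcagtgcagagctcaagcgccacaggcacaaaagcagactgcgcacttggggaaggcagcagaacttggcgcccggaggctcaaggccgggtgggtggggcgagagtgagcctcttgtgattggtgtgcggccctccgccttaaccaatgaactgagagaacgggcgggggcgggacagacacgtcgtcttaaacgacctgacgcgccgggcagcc
Slc1a2 promoter (chr2:102706188-102706487, plus strand): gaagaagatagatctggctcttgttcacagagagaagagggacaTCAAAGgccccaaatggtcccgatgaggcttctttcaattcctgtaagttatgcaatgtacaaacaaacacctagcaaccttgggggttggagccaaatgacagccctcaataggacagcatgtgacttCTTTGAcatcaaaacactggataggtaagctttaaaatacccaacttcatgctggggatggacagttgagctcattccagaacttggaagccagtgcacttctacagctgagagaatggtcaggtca
Lect2 promoter (chr13:56548489-56548788, minus strand): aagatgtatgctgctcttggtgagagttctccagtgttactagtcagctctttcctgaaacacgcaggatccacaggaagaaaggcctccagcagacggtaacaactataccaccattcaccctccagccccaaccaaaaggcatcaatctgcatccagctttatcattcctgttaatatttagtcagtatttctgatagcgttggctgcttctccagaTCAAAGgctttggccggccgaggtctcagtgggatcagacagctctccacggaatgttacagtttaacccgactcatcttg

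The labelled tissue was checked first. The 9 hepatocyte markers in the table summed to between 79200 and 110000 CPM (the count scaled by the library total and its TMM factor) in the 9 libraries, and the lowest sum was that of replicate 1 of F4MKO. The 5 skeletal muscle markers in the table summed to at most 1.62 CPM, and the muscle genes Ckm and Acta1 had at most 1 count in any library. To compare levels between genes, the mean CPM was divided by the length of the merged exons of GENCODE vM21. In Flox livers Glul stood highest at 282 CPM per kb, followed by Oat at 134, Lect2 at 85.7 and Slc1a2 at 11.4 CPM per kb. Rhbg (5.15 CPM per kb) and Tbx3 (4.59 CPM per kb) were close to each other, and their order turned in F4MKO livers (4.45 and 4.63 CPM per kb). In these groups they do not differ beyond the spread of the livers. In F4MKO+FSTL1 livers they were at 8.32 and 5.25 CPM per kb. Of the exon length of Rhbg 61.4% is shared with another gene on the same strand, so its place in the order is uncertain. Axin2 (1.43 CPM per kb), Lgr5 (0.789 CPM per kb) and Rnf43 (0.0540 CPM per kb) were lowest. Rnf43 had only 4 to 20 counts per library, so its values carry a large counting error. Apart from Rhbg and Tbx3, the order of the levels was the same in all 3 groups.

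**Figure D1:**
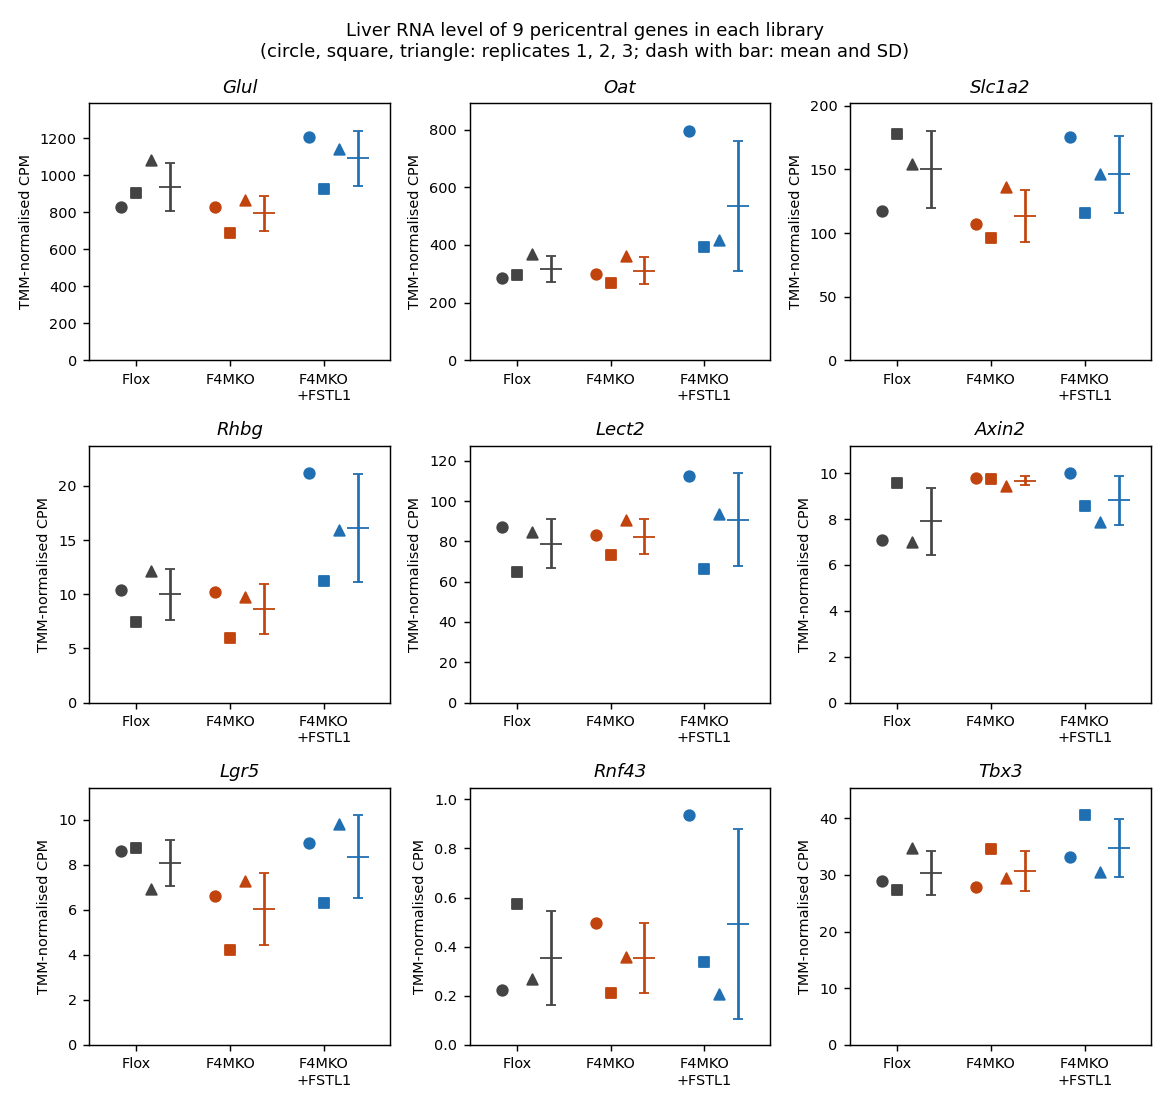
Level of each of the 9 pericentral genes in TMM-normalised CPM (vertical axes, each starting at 0) in Flox, F4MKO and F4MKO+FSTL1 livers. Circles, squares and triangles are replicates 1, 2 and 3, and the dash with its bar is the mean and SD of 3 livers. Glul, Oat and Rhbg of every F4MKO+FSTL1 liver lie above every F4MKO liver, while Slc1a2, Lect2, Axin2, Lgr5, Rnf43 and Tbx3 overlap.

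Deletion of IRF4 in muscle was compared with Flox to ask whether it moves the pericentral programme of the liver. None of the 9 genes was differentially expressed in F4MKO compared with Flox livers (0 of 9 by edgeR, with 0 at an unadjusted p under 0.05, and 0 of 9 by DESeq2). A gene was called differentially expressed at an adjusted p under 0.05 and a fold change above 1.5, and 0.271% of all 14379 tested genes were called in this comparison, 0.202% higher and 0.0695% lower. The log2 fold changes of the 9 genes ran from -0.42 for Lgr5 to 0.29 for Axin2, with 4 higher, 5 lower and a median of -0.03, beside -0.003 over all genes. Their adjusted p-values ran from 0.304 to 0.997 (edgeR). The groups overlapped for all 9 genes, where 21.8% of all tested genes did not overlap.

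Glul had 831, 902 and 1083 CPM in the Flox livers and 829, 687 and 868 CPM in the F4MKO livers. All 3 F4MKO livers lay below replicates 2 and 3 of Flox, but replicate 3 of F4MKO lay above replicate 1 of Flox. The log2 fold change of Glul was -0.24 (95% interval -0.57 to 0.09, adjusted p = 0.438, edgeR). Slc1a2 had 118, 178 and 154 CPM in Flox and 107, 96.4 and 136 CPM in F4MKO livers. It had the smallest adjusted p of the 9 genes in this comparison, 0.304, with a log2 fold change of -0.41 (95% interval -0.82 to 0.01). Replicate 3 of F4MKO lay above replicate 1 of Flox, and the groups overlapped.

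Lgr5, the R-spondin receptor, had 8.60, 8.77 and 6.92 CPM in Flox livers and 6.61, 4.23 and 7.26 CPM in F4MKO livers. Replicate 2 of F4MKO was the lowest of all 9 libraries, and the log2 fold change was -0.42 (95% interval -0.90 to 0.06, adjusted p = 0.352, edgeR). Axin2 lay the other way, with 7.09, 9.59 and 7.01 CPM in Flox and 9.80, 9.76 and 9.46 CPM in F4MKO livers. The F4MKO livers were close to each other and above replicates 1 and 3 of Flox, but replicate 2 of Flox reached the same level. Its log2 fold change was 0.29 (95% interval -0.03 to 0.62, adjusted p = 0.346, edgeR).

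Oat had 287, 296 and 367 CPM in Flox and 301, 269 and 363 CPM in F4MKO livers, with a fold change of 0.982 (95% interval 0.681 to 1.42). Rhbg had 10.4, 7.42 and 12.1 CPM in Flox and 10.2, 5.99 and 9.70 CPM in F4MKO livers, with a fold change of 0.868 (95% interval 0.582 to 1.29). Both genes, which differed in the next comparison, thus had overlapping levels without FSTL1. Tbx3 had the narrowest interval of the 9, with a fold change of 1.01 (95% interval 0.823 to 1.24), and changes of 1.5-fold in either direction lay outside it. Lect2 had a fold change of 1.05 (95% interval 0.798 to 1.37). For Rnf43 the interval of the fold change ran from 0.409 to 2.47, and a change of 2-fold was not detectable at its depth.

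FSTL1 overexpression in the muscle of F4MKO mice was then compared with F4MKO alone. Rhbg and Oat rose in F4MKO+FSTL1 livers, 1.86-fold and 1.72-fold, and Glul was 1.37-fold higher with an adjusted p under 0.05 but below the fold threshold. The adjusted p-values of the other 6 genes ran from 0.153 for Lgr5 to 0.616 for Lect2 (edgeR), and the glutamate carrier Slc1a2 was among them. In all, 2 of the 9 genes were called, both higher, where 14.4% of all tested genes were called, 3.21% higher and 11.2% lower. The median log2 fold change of the 9 genes was 0.46, with 8 higher and 1 lower, beside a median of 0.01 over all genes. The groups did not overlap for Glul, Oat and Rhbg (3 of 9), where 39.0% of all tested genes did not overlap 18.0% with higher and 21.1% with lower values. With so few genes, no share above this background is claimed. The comparison uses the same F4MKO libraries as the first one.

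**Figure D2:**
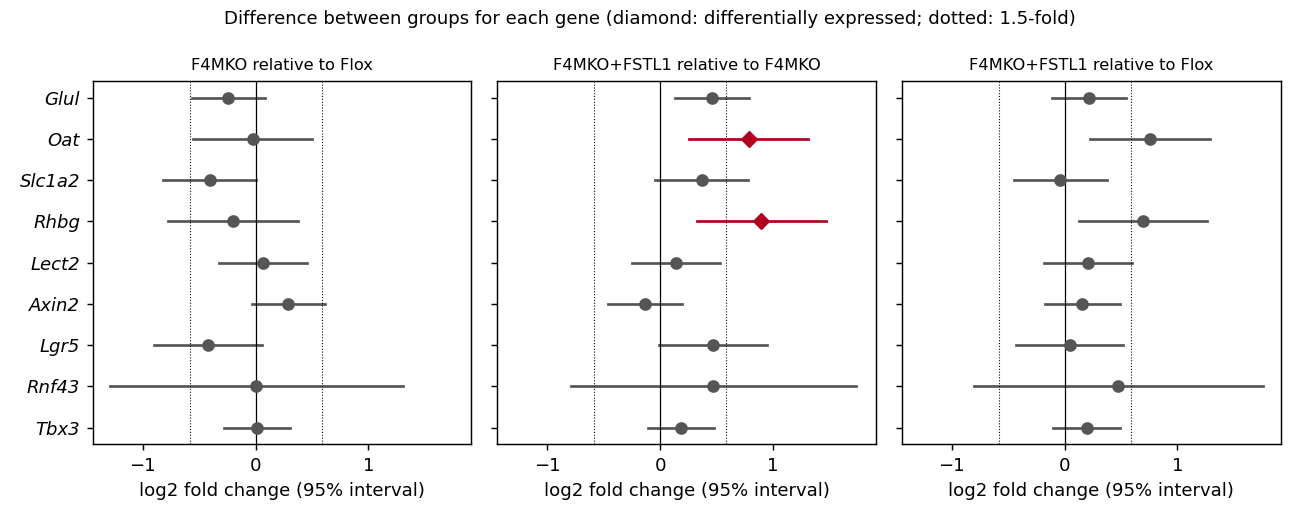
Log2 fold change of each of the 9 genes (points) with its 95% interval (lines) for F4MKO relative to Flox, F4MKO+FSTL1 relative to F4MKO and F4MKO+FSTL1 relative to Flox. Red diamonds are differentially expressed genes, here Oat and Rhbg in the middle panel, and dotted lines mark a 1.5-fold change.

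Rhbg had 21.2, 11.2 and 15.9 CPM in the F4MKO+FSTL1 livers, against 10.2, 5.99 and 9.70 CPM in the F4MKO livers. Every F4MKO+FSTL1 liver was above every F4MKO liver, with replicate 2 of F4MKO+FSTL1 close to replicate 1 of F4MKO. Its log2 fold change was 0.90 (standard error 0.26, adjusted p = 0.0316, edgeR), with an interval of the fold change from 1.25 to 2.77. The call was lost without replicate 1 of F4MKO (log2 fold change 1.03, adjusted p = 0.0525), replicate 2 of F4MKO (0.69, adjusted p = 0.0911), replicate 1 of F4MKO+FSTL1 (0.65, adjusted p = 0.108) or replicate 3 of F4MKO+FSTL1 (0.92, adjusted p = 0.0538). Of its merged exon length, 61.4% is shared with exons of Gm38392, annotated on the same strand in GENCODE vM21. Whether the counting divided reads between these genes was not tested.

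Oat had 796, 393 and 417 CPM in the F4MKO+FSTL1 livers, against 301, 269 and 363 CPM in the F4MKO livers. Replicate 1 of F4MKO+FSTL1 stood far above all other livers, while replicates 2 and 3 lay just above replicate 3 of F4MKO. The means were 535 ± 226 and 311 ± 47.5 CPM (SD, n = 3 each), so the coefficient of variation was 42.2% with FSTL1 and 15.3% without. The log2 fold change was 0.78 (standard error 0.24, adjusted p = 0.0406, edgeR). Without replicate 1 of F4MKO+FSTL1 it was 0.39 (adjusted p = 0.116), below the fold threshold. The call was also lost without replicate 1 of F4MKO (0.76, adjusted p = 0.120), replicate 2 of F4MKO (0.69, adjusted p = 0.119) or replicate 2 of Flox (0.79, adjusted p = 0.0537), and with only the 6 libraries compared (0.78, adjusted p = 0.0689).

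Glul had 1207, 925 and 1144 CPM in the F4MKO+FSTL1 livers, all above the highest F4MKO liver at 868 CPM. The log2 fold change was 0.46 (standard error 0.15, 95% interval 0.13 to 0.79, adjusted p = 0.0495, edgeR). In fits that left out 1 library or changed the processing it ran from 0.36 to 0.57, with adjusted p-values from 0.0105 to 0.154, and with the fold threshold Glul was not called in any of them, since the fold stayed under 1.5. In 5 of 9 fits that left out 1 library the adjusted p of Glul was above 0.05.

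**Figure D3:**
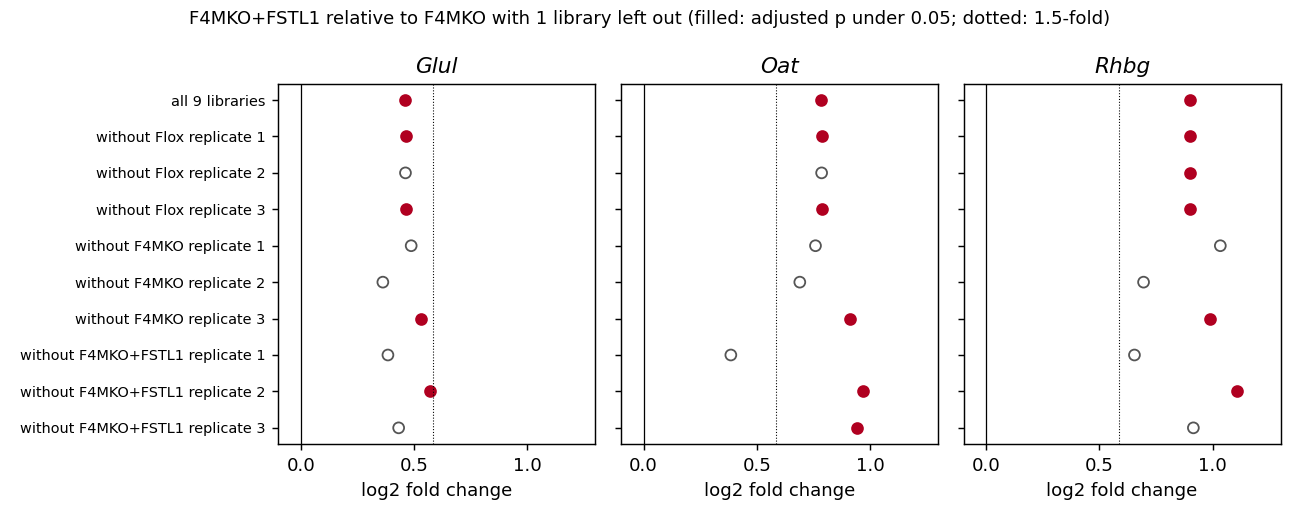
Log2 fold change of Glul, Oat and Rhbg in F4MKO+FSTL1 relative to F4MKO livers with all 9 libraries and with each library left out in turn. Filled points have an adjusted p under 0.05 and the dotted line is a 1.5-fold change. Oat falls from 0.78 to 0.39 without replicate 1 of F4MKO+FSTL1, and every value is above 0.

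The glutamate carrier Slc1a2 had 176, 116 and 147 CPM with FSTL1, and replicate 2 lay below replicate 3 of F4MKO at 136 CPM. Its log2 fold change was 0.37 (95% interval -0.05 to 0.78, adjusted p = 0.187, edgeR). Lgr5 had 8.97, 6.30 and 9.82 CPM with FSTL1 against 6.61, 4.23 and 7.26 CPM without, which overlap, and a log2 fold change of 0.47 (95% interval -0.01 to 0.95, adjusted p = 0.153, edgeR). Both intervals hold no change as well as a rise of over 1.5-fold. Axin2 had 9.999, 8.56 and 7.89 CPM with FSTL1 and was the single gene of the 9 with a lower mean, with a fold change of 0.912 (95% interval 0.728 to 1.14, adjusted p = 0.559, edgeR). A rise of Axin2 by 1.37-fold, the change of Glul, thus lay outside its interval. Whether Axin2 and Glul differ in their change was not tested. Lect2 had 112, 66.4 and 93.4 CPM with FSTL1, on both sides of the F4MKO livers at 73.4 to 90.5 CPM, and a fold change of 1.10 (95% interval 0.840 to 1.44). Tbx3 had 33.2, 40.5 and 30.6 CPM against 27.8 to 34.6 CPM in F4MKO livers and a fold change of 1.13 (95% interval 0.925 to 1.39). Rnf43 had 20, 7 and 4 counts in the F4MKO+FSTL1 libraries and 14, 5 and 9 in the F4MKO libraries, which overlap.

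Single livers stood out across the genes. Over all tested genes it was replicate 1 of F4MKO that stood apart most, as the highest of the 9 libraries for 20.6% and the lowest for 19.2% of them. It had the largest TMM factor (1.17), the lowest hepatocyte marker sum and the highest cholangiocyte marker sum, and it was neither the highest nor the lowest library for any of the 9 genes. Without it 0 of the 9 genes were called in either comparison with F4MKO. Replicate 1 of F4MKO+FSTL1 was the highest of the 9 libraries for 6 of the 9 genes (Glul, Oat, Rhbg, Lect2, Axin2 and Rnf43), while it was the highest for 11.3% of all tested genes. Replicate 2 of F4MKO was the lowest for 5 of the 9 (Glul, Oat, Slc1a2, Rhbg and Lgr5), while it was the lowest for 9.04% of all tested genes. The ratio of the highest to the lowest library ran from 1.43 for Axin2 to 3.53 for Rhbg and 4.47 for Rnf43. Within groups the coefficient of variation was at most 13.8% for Glul and 23.8% to 30.8% for Rhbg. The signalling gene Axin2 thus spread least over all livers and the ammonium carrier Rhbg spread most among genes above 100 counts.

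The libraries also differed in markers of other cells. In bulk tissue, fewer cells of a type and less RNA per cell cannot be told apart. The summed cholangiocyte markers were at 163 to 437 CPM in F4MKO livers and at 36.4 to 54.7 CPM in F4MKO+FSTL1 livers, with 5 of 6 tested markers called lower. In Flox livers they were at 51.2 to 90.6 CPM, and 2 of 6, Epcam and Spp1, were called higher in F4MKO compared with Flox livers. The Flox livers had stellate cell marker sums of 423 to 491 CPM, macrophage marker sums of 632 to 999 CPM and proliferation marker sums of 22.3 to 38.2 CPM. In F4MKO compared with Flox livers 10 of 10 stellate and 8 of 8 proliferation markers had higher means, with 0 called by edgeR (3 and 4 at an unadjusted p under 0.05) and 2 and 1 called by DESeq2. From F4MKO to F4MKO+FSTL1 livers, stellate cell markers (6 of 10 called lower) summed to 549 to 693 CPM and 284 to 390 CPM, macrophage markers (6 of 10) to 711 to 809 CPM and 374 to 601 CPM, and proliferation markers (7 of 8) to 43.3 to 48.5 CPM and 12.3 to 19.2 CPM. Endothelial markers, a list not limited to cells of the central vein, overlapped at 264 to 319 CPM and 277 to 336 CPM. Of these markers 0 of 10 were called by edgeR or DESeq2, with 2 at an unadjusted p under 0.05 and a smallest adjusted p of 0.049 (edgeR). Of 7 tested lymphocyte markers 0 were called by either tool (1 at an unadjusted p under 0.05). Hepatocyte markers overlapped too, at 79200 to 110000 CPM and 93200 to 109000 CPM, with 1 of 9 called higher (Serpina1c). Of the adipocyte and muscle lists 1 gene each had enough counts to be tested. Adrb3 of the first was called higher, and Adipoq, which defines adipocytes, had at most 2 counts in any library. The part of these shifts in the values of Oat, Rhbg and Glul, and of the genes of the other lists described below, was not tested.

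Against Flox livers, F4MKO+FSTL1 livers had 0 of 9 genes called by edgeR, with 2 at an unadjusted p under 0.05, Oat and Rhbg. Of all tested genes 0.00695% were called. Oat was 1.69-fold higher (95% interval 1.17 to 2.44, adjusted p = 0.204, edgeR), and every F4MKO+FSTL1 liver, from 393 CPM, lay above the highest Flox liver at 367 CPM. It was the single gene of the 9 without overlap, where 18.2% of all tested genes did not overlap, 7.44% with higher values. With DESeq2 Oat was called (log2 fold change 0.77, adjusted p = 0.0472), and so it was with edgeR without a filter on low counts (0.76, adjusted p = 0.0285). Without replicate 1 of F4MKO+FSTL1 its log2 fold change was 0.36. Rhbg was 1.62-fold higher (95% interval 1.09 to 2.40, adjusted p = 0.273, edgeR), with replicate 2 of F4MKO+FSTL1 at 11.2 CPM below replicate 3 of Flox at 12.1 CPM. Glul (1.16-fold, 95% interval 0.927 to 1.46), Slc1a2 (0.974-fold, 0.731 to 1.30) and Lgr5 (1.03-fold, 0.742 to 1.43) had intervals on both sides of no change. Against Flox livers, 10 of 10 macrophage markers were lower (9 at an unadjusted p under 0.05, 0 called, edgeR). So were 8 of 8 proliferation markers (7 at an unadjusted p under 0.05, 1 called, edgeR). Of 9 hepatocyte markers 6 were higher and 3 lower, with 0 called. The part of these shifts in the values of Oat and Rhbg was not tested.

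The genes that carry the Wnt signal were then counted, from lists of textbook members. Of 25 Wnt ligands, R-spondins and secretion factors, 19 were in the table and 11 had enough counts to be tested. In F4MKO compared with Flox livers 0 of the 11 were called by edgeR or DESeq2, with 2 at an unadjusted p under 0.05, and Wls, Wnt2 and Porcn had the smallest p. Wnt2, a ligand of liver endothelial cells, had 5.71, 5.78 and 7.19 CPM in Flox and 2.48, 4.61 and 5.23 CPM in F4MKO livers, with a log2 fold change of -0.61 (adjusted p = 0.234, edgeR). Wls, which escorts Wnt proteins to the cell surface, had means of 6.48 ± 0.942 CPM in Flox and 9.11 ± 0.713 CPM in F4MKO livers (SD, n = 3 each), with a log2 fold change of 0.49 (adjusted p = 0.159, edgeR). The groups did not overlap for either gene, as for 21.8% of all tested genes. In F4MKO+FSTL1 compared with F4MKO livers 1 of 11 was called, where 14.4% of all tested genes were called. With 11 tested genes no share below this background is claimed. The called gene was Wls, which fell from 9.11 ± 0.713 to 4.51 ± 0.743 CPM (SD, n = 3 each, log2 fold change -1.01, adjusted p = 0.00239, edgeR). Rspo3 and Wnt9b, the R-spondin and a ligand of the central vein, are named after their values were seen. Rspo3 had 6.34 ± 0.462, 6.48 ± 1.01 and 6.23 ± 0.470 CPM (SD, n = 3 each) in Flox, F4MKO and F4MKO+FSTL1 livers, and Wnt9b had 1.47 ± 0.245, 1.17 ± 0.0988 and 1.07 ± 0.384 CPM (SD, n = 3 each). Neither differed beyond the spread of the livers in any comparison, with adjusted p-values from 0.569 to 0.972 (edgeR).

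Among receptors and co-receptors 10 of 15 were tested. None was called in F4MKO compared with Flox livers (0 by edgeR or DESeq2, 2 at an unadjusted p under 0.05), and Fzd6, Ryk and Fzd1 had the smallest p. In F4MKO+FSTL1 compared with F4MKO livers 1 was called, the Wnt receptor Fzd8, which rose from 7.07 ± 1.16 to 11.5 ± 2.61 CPM (SD, n = 3 each, log2 fold change 0.70, adjusted p = 0.0320, edgeR). Of 13 Wnt inhibitors, a list that holds the membrane proteins Kremen1 and Kremen2 beside secreted ones, 4 were tested, Kremen1 among them. With FSTL1 3 were called, all secreted, where 14.4% of all tested genes were called. With 4 tested genes no share above this background is claimed. Between F4MKO and Flox livers 0 were called by edgeR and 1 by DESeq2 (3 at an unadjusted p under 0.05). Dkk3 and Frzb, which are secreted proteins of Wnt inhibitor families, fell with log2 fold changes of -1.24 and -1.46. Dkk4, a known target and inhibitor of Wnt signalling, had 10, 29 and 8 counts in F4MKO+FSTL1 libraries and 1, 0 and 1 in F4MKO libraries, with 5, 4 and 13 in Flox libraries. Against a floor of 3 counts in each F4MKO library it was at least 6.48-fold higher with FSTL1 (adjusted p = 0.00501, edgeR), and the call was lost with only the 6 libraries compared. Without replicate 2 of F4MKO+FSTL1, left out after the data were seen, the bound was 3.78-fold. The inhibitors thus moved in both directions.

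**Figure D4:**
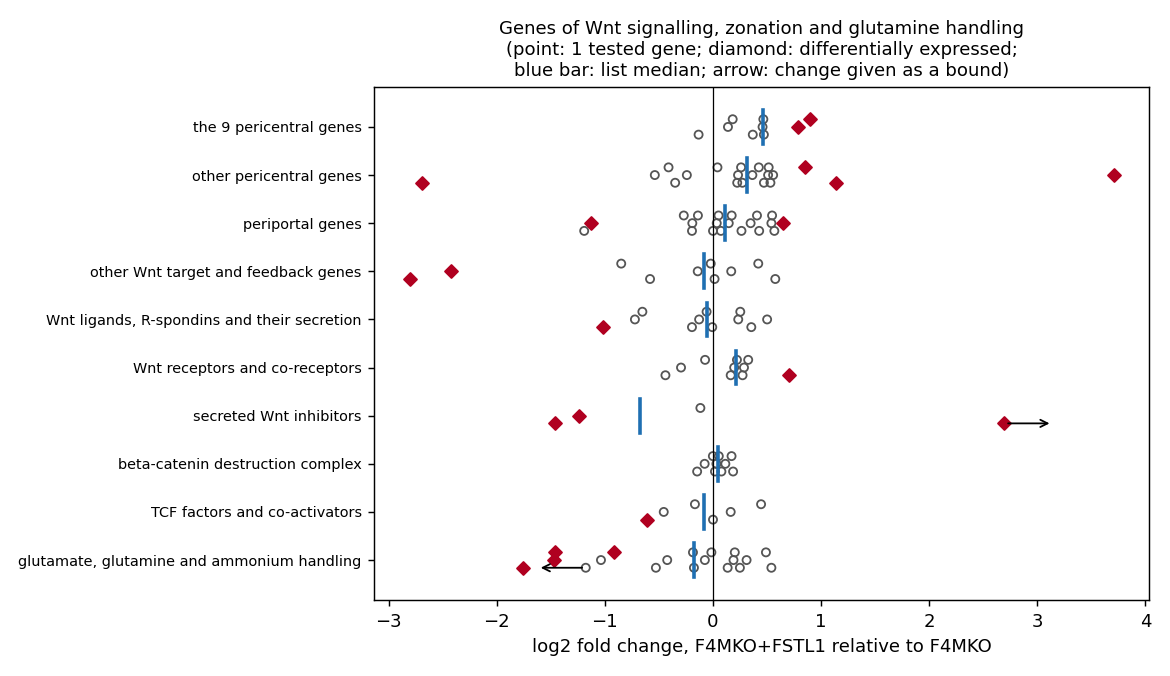
Log2 fold change in F4MKO+FSTL1 relative to F4MKO livers of every tested gene (points) of the 9 pericentral genes and of 9 other lists. Red diamonds are differentially expressed genes, blue bars are list medians (0.46 for the 9 genes, 0.32 for other pericentral genes and 0.11 for periportal genes), and arrows mark genes at the counting floor, drawn at their bound.

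Of 10 genes of the beta-catenin destruction complex and its inputs 0 were called in any comparison by edgeR or DESeq2, with 0 at an unadjusted p under 0.05. Over all tested genes edgeR called 0.271% for F4MKO against Flox, 14.4% for FSTL1 against F4MKO alone and 0.00695% for FSTL1 against Flox. The lists described here hold only 6 to 10 tested genes, so 0 calls are not read as a lack of effect. For the same reason no share above or below these values is claimed. In these comparisons the smallest p-values were those of Btrc, Apc and Dvl1 without FSTL1 and of Gsk3a, Ctnnb1 and Btrc with it. Ctnnb1, which encodes beta-catenin, had 149 ± 10.4, 164 ± 13.6 and 148 ± 11.2 CPM (SD, n = 3 each) in Flox, F4MKO and F4MKO+FSTL1 livers. Of 6 tested TCF factors and co-activators 0 were called in F4MKO compared with Flox livers (0 by DESeq2, 1 at an unadjusted p under 0.05). Tcf7, a TCF factor of lymphocytes as well, was called lower with FSTL1 (log2 fold change -0.61, adjusted p = 0.0452, edgeR). Among 10 tested other targets and feedback genes, Ccnd1, a cell cycle gene, was called higher in F4MKO livers (log2 fold change 1.59, adjusted p = 0.0404, edgeR) and lower with FSTL1 (-2.81, adjusted p = 0.000665). The cell cycle inhibitor Cdkn1a was called lower with FSTL1 (-2.42, adjusted p = 0.00199). Both genes respond to many signals besides Wnt, and the part of the shift in proliferation markers in their values was not tested.

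The wider zones were described in the same way. Of 20 other pericentral genes 0 were called in F4MKO compared with Flox livers by edgeR and 1 by DESeq2, with 6 at an unadjusted p under 0.05 and a median log2 fold change of -0.13. With FSTL1, relative to F4MKO livers, 3 were called higher and 1 lower, with 15 of 20 higher and a median of 0.32. Of all tested genes 3.21% were called higher and 11.2% lower in that comparison. Cyp2e1, the ethanol-oxidising cytochrome P450, had 13510, 11500 and 11340 CPM with FSTL1 and 4445, 5093 and 7029 CPM without (log2 fold change 1.13, adjusted p = 0.00206, edgeR). Nr1i3, the nuclear receptor CAR, rose from 69.7 ± 9.10 to 126 ± 15.3 CPM (SD, n = 3 each, log2 fold change 0.85, adjusted p = 0.0221, edgeR). Mup17 rose with a log2 fold change of 3.71 and Gstm3, a glutathione transferase, fell with -2.69, and both have close paralogs, which makes their counts uncertain. Of 20 periportal genes, which mark the other end of the lobule, 0 were called in F4MKO compared with Flox livers by edgeR or DESeq2 (4 at an unadjusted p under 0.05), and Cyp2f2, Pigr and Etnppl had the smallest p. Their median log2 fold change was -0.15, with 14 of 20 lower, and 14 of the 20 other pericentral genes were lower too. With FSTL1 the periportal cytochrome P450 Cyp2f2 was called higher (0.65, adjusted p = 0.0179, edgeR) and Cdh1, E-cadherin, lower (-1.13, adjusted p = 0.00630). The median over the 20 genes was 0.11, with 14 higher and 6 lower. Genes of both zones were thus called, and in both directions. The part of the shifts in cell type markers in these values, that of Cdh1 among them, was not tested.

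Of 22 other genes of glutamate, glutamine and ammonium handling 19 were tested. In F4MKO compared with Flox livers 0 were called by edgeR or DESeq2, with 4 at an unadjusted p under 0.05. With FSTL1 4 of 19 were called, all lower, where 11.2% of all tested genes were called lower, and the list median was -0.18 with 12 lower and 7 higher. Aldh18a1 and Pycr1, which make proline from glutamate, fell from 4.14 ± 1.22 to 1.22 ± 0.198 CPM and from 0.779 ± 0.157 to 0.279 ± 0.0408 CPM (SD, n = 3 each). Pycr1 had only 20, 16 and 24 counts in F4MKO and 5, 6 and 6 in F4MKO+FSTL1 libraries, so its values carry a large counting error. The amino acid carriers Slc1a4 and Slc1a5 fell with log2 fold changes of -1.46 and -0.91. Of the 18 genes called with FSTL1 in these pathway and zone lists, 13 were called in every fit that left out 1 library. The 5 others were Cyp2f2 (lost without replicate 1 of F4MKO or replicate 2 of F4MKO+FSTL1), Pycr1 (without replicate 1 or 2 of F4MKO+FSTL1), Nr1i3 (without replicate 1 or 2 of F4MKO or replicate 3 of F4MKO+FSTL1), Fzd8 (without replicate 1 or 3 of F4MKO or replicate 1 or 2 of F4MKO+FSTL1) and Tcf7, which was called in 3 of 9. Tcf7 was lost without replicate 2 or 3 of Flox, replicate 1 or 3 of F4MKO or replicate 1 or 2 of F4MKO+FSTL1. The call of Ccnd1 in F4MKO compared with Flox livers was kept in 2 of 9 such fits, those without replicate 3 of F4MKO or replicate 2 of F4MKO+FSTL1.

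The genes whose pattern over the 9 libraries was most like that of Glul, by the mean absolute difference in z scores of log2 CPM over 14370 other genes, were Pde6c (0.248), Apol7a (0.269), E230016M11Rik (0.275), Capn8 (0.285) and Xirp1 (0.294). For Axin2 they included Mkl1 (0.198), Rrm2b (0.203), Mtmr9 (0.209) and D630045J12Rik (0.216). Among 14370 genes and only 9 libraries some genes always lie close, and a shared role of these genes was not tested.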

How the data were processed

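Liver RNA of 9 mice (3 Flox, 3 F4MKO and 3 F4MKO+FSTL1) was analysed. The authors sequenced paired-end reads on the BGIseq500 platform, and the submitters' processing notes name Trim Galore 0.6.7, HISAT2 2.2.1, featureCounts 2.0.1 and the build mm10. The deposited values are raw counts per gene. The gene annotation, the strand setting and the handling of multi-mapping reads are not given in the sources used here, so a gene and an overlapping antisense gene may not be told apart. Glul, Slc1a2, Axin2 and Tbx3 share 1.44% to 3.8% of their exon length with genes on the opposite strand.

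The test was run in edgeR 4.0.16 (R 4.3.3). Genes passed filterByExpr with a minimum count of 10 in 3 libraries and a minimum total of 15, which left 14379 of 24008 genes. Library sizes were normalised by TMM (factors 0.927 to 1.17), and all 9 libraries entered 1 quasi-likelihood model, in which each group has its own mean. P-values were adjusted over all tested genes (Benjamini-Hochberg). Intervals of fold changes are 95% intervals from this fit. A group with 3 counts or fewer in every library was treated as at the floor. Replicates are separate liver samples, and the labels do not say more about them, so p-values measure the spread between these samples. Bounds and floors cover counting error only. The alternatives were DESeq2 1.42.0, RLE size factors, no filter, only the 6 libraries compared, the replicate number as a block, no fold threshold and each library left out. On data simulated for the first comparison (14207 genes), 95.9% of 4-fold and 65.7% of 2-fold changes were recovered. In all, 158 of 196 changed genes were recovered, and 15 unchanged genes were called as well. The simulated counts used the mean and spread of each gene in this fit, with no outlying liver added. Recovery in the real livers may thus be lower. The genes named are the 9 genes, the called genes of each list or, where none or over 6 were called, the 3 of lowest p, and the 5 genes most like Glul and Axin2. A few genes that this rule names are not reported here. For the cell type marker lists counts and summed levels are given. The 9 genes and the lists were chosen with earlier results of these data known.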

Additional observations from a re-analysis of the deposited data

How the results depend on the processing

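The number of the 9 genes called in F4MKO compared with Flox livers was 0 under every alternative run. In F4MKO+FSTL1 compared with F4MKO livers it was 2, and it was 1 with only the 6 libraries compared, 3 without a fold threshold, and 0 to 2 with 1 library left out. In F4MKO+FSTL1 compared with Flox livers it was 0, and 1 with DESeq2 and 1 without a filter on low counts. Over all genes, the 39 called in F4MKO compared with Flox livers were 338 with DESeq2, 478 without a filter, 11 with only the 6 libraries compared and 0 to 100 with 1 library left out. The 2070 called in F4MKO+FSTL1 compared with F4MKO livers ran from 1295 to 2216 with 1 library left out. The 1 gene called in F4MKO+FSTL1 compared with Flox livers became 284 with DESeq2, 379 without a filter, 2 with RLE size factors, 0 with only the 6 libraries compared and 0 to 101 with 1 library left out. The cause was not tested. With the replicate number as a block, 0, 2 and 0 of the 9 genes were called and 134, 2170 and 15 of all genes. Same-numbered libraries correlated in their deviations between -0.099 and 0.304, not above 0.1 for every pair, so the numbers were not treated as a pairing. Rnf43, with 4 to 20 counts per library, limits what depth can show. The sign of the change differed among alternatives for Rnf43 in all 3 comparisons, for Oat and Tbx3 in F4MKO compared with Flox livers, for Lect2 in both comparisons with F4MKO, and for Lgr5 and Slc1a2 in F4MKO+FSTL1 compared with Flox livers, none of them called.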
